A study of Mus musculus with 72 samples.

Results

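Time points 3 and 1 of a light and dark day were compared in the epidermis of mice that keep a working clock in the epidermis and lack one elsewhere. The comparison holds 8 of the 72 RNA-seq libraries of the series, the 4 of time point 3 and the 4 of time point 1 of the rescue genotype (RE), chosen by their titles. RNA came from the interfollicular epidermis of back skin, which was lifted off the dermis with dispase. Every group held 4 C57BL/6 females aged 8 weeks, kept under 12 h of light and 12 h of darkness with chow at will, and each library was taken as 1 mouse. RE mice carry Bmal1-stopFL, an allele of Bmal1 (gene symbol Arntl) silenced by a stop cassette, together with K14-Cre, a Cre recombinase under the keratin 14 promoter, so that Bmal1 can return where that promoter is active, in basal keratinocytes and other stratified epithelia. Epidermal melanocytes and Langerhans cells do not use that promoter. The Bmal1-stopFL mice without Cre (KO) and the K14-Cre mice (WT) were sampled at the same time points and serve here for reference. The labels number the time points and give no clock hours, and the series asks what remains of the daily epidermal transcriptome when clocks outside the epidermis are missing.

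The circadian clock is a feedback loop of transcription. BMAL1 pairs with CLOCK or its relative NPAS2, binds E-boxes and drives the Period and Cryptochrome genes, whose proteins then repress the pair. It also drives the REV-ERB receptors Nr1d1 and Nr1d2, which repress Bmal1, and the PAR bZIP factors Dbp, Tef and Hlf, which act through D-boxes and pass the rhythm on to output genes. In skin the loop is known to time DNA replication and division of basal keratinocytes to different parts of the day.

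Libraries of the 8 samples held between 31119891 and 41642833 reads counted in genes and between 22363 and 23399 detected genes, so depth varied little between the groups. Levels are given as CPM, the reads of a gene relative to all reads of the library, after scaling with the trimmed mean of M-values (TMM). Among the 72 libraries the log2 ratio of mt-Co1 to mt-Nd1, mitochondrial transcripts, splits the series into sets of 40 and 32 libraries, and all 8 lie in the first, between -3.53 and -3.07. Replicate 2 of RE time point 3 stands apart from its label: on a scale of 50 genes outside the clock lists on which WT libraries of time points 1 and 2 average 0 and RE libraries average 1, it lay at 0.378. The other 3 libraries of RE time point 3 lay between 0.836 and 1.04, and replicates 1, 3 and 4 of WT time point 3 between -0.0397 and 0.355. The 4 of RE time point 1 lay between 0.945 and 1.15, but they helped to set the scale, so these values follow from it. Replicate 2 of RE time point 3 was therefore left out of the main result, which rests on 4 libraries of time point 1 and 3 of time point 3. Replicate 1 of KO time point 3 and replicate 2 of WT time point 3 lay near another genotype in the same way and were left out of the reference groups. The main counts are also given with all 8 RE libraries.

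Replicate 4 of RE time point 1 stands apart in another way. Between its counts and those of the other 3 libraries of that group the mean chi-square per gene, which is about 1 where libraries differ by sampling noise alone, was 125 to 177, against 22.8 to 56.9 among those 3. Mitochondrially encoded genes made 1.60% of its reads, against 0.591% to 0.766% in the other 3 and 0.817% to 0.905% in the 4 libraries of time point 3. Replicate 4 of KO time point 1 departed in a like way, with 1.04% of its reads mitochondrially encoded, against 0.593% to 0.708% in the other 3 libraries of its group, whereas the 4 WT libraries of time point 1 lay between 0.651% and 0.676%. Both stayed in the main result, and counts without the RE library are given beside it.

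Keratinocyte markers of the basal and spinous layers were abundant. Summed over 16 genes of the basal layer and basement membrane, the 7 libraries held between 21994 and 29690 CPM, and the 15 spinous genes between 36883 and 53798 CPM. The 27 genes of the granular layer summed to 1138 to 1755 CPM. The 15 genes of hair follicle stem cells and the upper follicle summed to 1045 to 1577 CPM, and the 16 sebaceous gland genes to 684 to 951 CPM. The 16 genes of Langerhans cells and macrophages summed to 150 to 1073 CPM, the 13 melanocyte genes to 30.0 to 70.6 CPM and the 11 of endothelium and mural cells to 4.30 to 8.70 CPM. The 5 red blood cell genes summed to 42.7 to 77.5 CPM and the 8 Merkel cell genes to 1.08 to 3.19 CPM. Hba-a2 and Atoh1, 1 gene of each of these lists, were at 0 in all 7 libraries.

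Arntl, the gene that the cassette silences, was present in RE at both time points and was lower at time point 3. The RE libraries of time point 1 held 102, 112, 90.9 and 90.7 CPM in order of replicate, and those of time point 3 held 69.3, 52.6 and 49.5 CPM for replicates 1, 3 and 4. The groups did not overlap. In KO the transcript was detected at 28.1 to 34.7 CPM at time point 1 and at 29.2 to 29.5 CPM at time point 3, so every RE library of the main result lay above every KO library. In WT it went from 115 to 157 CPM at time point 1 to 25.9 to 34.0 CPM at time point 3. The fall in RE was 0.79 ± 0.13 (log2, SE; adjusted p = 0.00194 by edgeR's quasi-likelihood test with Benjamini-Hochberg adjustment), and the change in KO was -0.13 ± 0.13 (adjusted p = 0.619).

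Across all genes, 62 of 18343 tested differed between time points 3 and 1 in RE at an adjusted p under 0.05, which is 0.338% of them. Of these 26 were higher (0.142%) and 36 lower (0.196%) at time point 3, and 28 changed by at least 2-fold. The 62 include 7 of the 20 measured clock genes: Per3, Nr1d2, Dbp, Tef and Hlf rose, and Arntl and Npas2 fell. Beside them stood the cyclin gene Ccnd2 and the replication genes Mcm6, Prim1 and Mms22l among the rises, and the heat shock genes Hspa1a, Hspa2 and Hspb8 among the falls. Without replicate 4 of time point 1, 1709 genes passed (9.32%), 661 higher (3.6%) and 1048 lower (5.71%). With all 8 libraries 523 passed (2.85%), 166 higher (0.904%) and 357 lower (1.94%). All 62 were among the 1709, and 58 of the 62 among the 523.

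The number of genes called depended on single mice, whereas a core of clock genes was called each time. When replicates 1, 2, 3 or 4 of time point 1 were left out in turn, 19, 12, 124 and 1709 genes passed, and 18, 9 and 21 passed without replicate 1, 3 or 4 of time point 3. In each of these 7 fits 7 of the 62 passed: Per3, Tef, Dbp, Nr1d2, Arntl, Ccnd2 and Gm14275. Gm14275, a transcript singled out after its values were seen, was at 0 in the 4 libraries of time point 1 and at 0.221 to 0.373 CPM in the 3 of time point 3. In a fit of the 7 RE libraries alone, without the spread of the other groups, 0 of 16954 genes passed by edgeR, with 2009 at an unadjusted p under 0.05, and Per3 and Tef had adjusted p-values of 0.149.

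**Figure D1:**
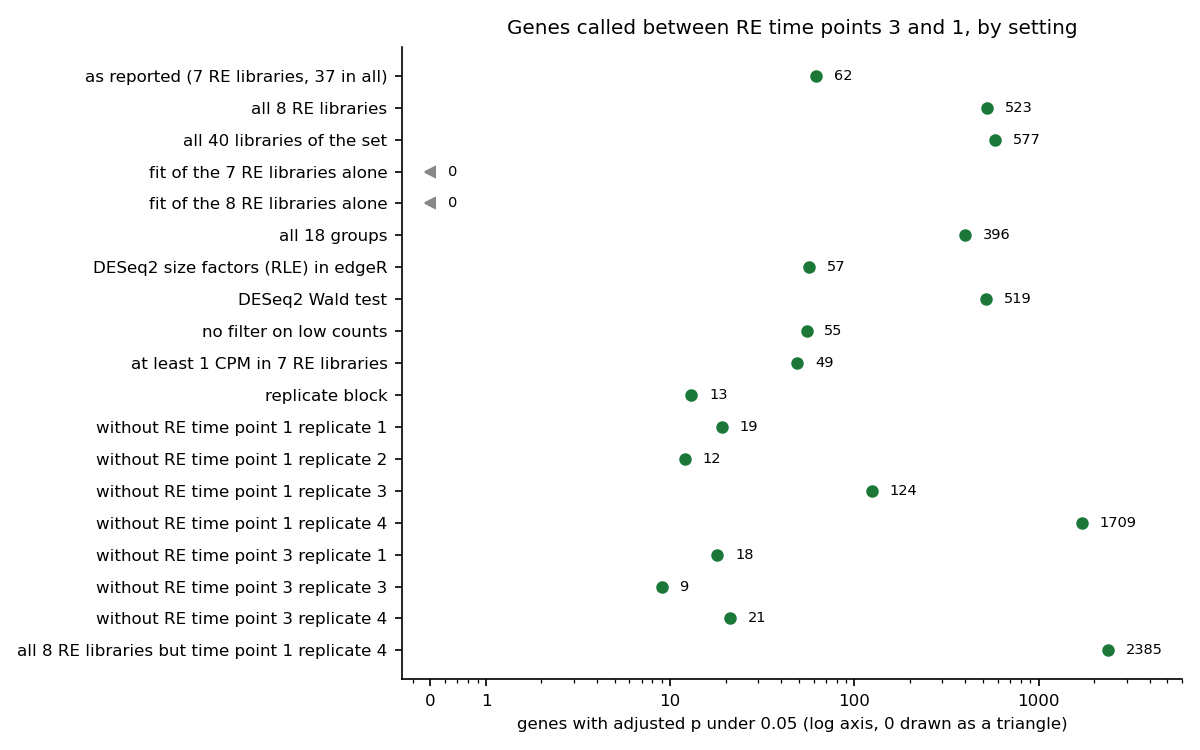
Number of genes with an adjusted p under 0.05 between RE time points 3 and 1 (log axis, 0 drawn as a triangle) for the main result and each other setting, 1 point per setting. The main count of 62 lies between 9 and 1709 when single libraries are left out, and the highest counts are the 1709 and 2385 without replicate 4 of time point 1.

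Promoters of the 2 called clock genes that hold an E-box or a D-box are shown because these are the sequences through which BMAL1 and the PAR bZIP factors are known to act. They come from RefSeq on GRCm38.p6, 5′ to 3′ along the gene, 250 bases before to 50 bases after an annotated start. Capitals mark D-box matches (TTATGTAA or TTACGTAA, either strand) in Per3, chr4:151044616-151044915 on the minus strand, and E-box matches (CACGTG, its own complement) in both windows of Tef, chr15:81802423-81802722 and chr15:81811164-81811463 on the plus strand.
Per3: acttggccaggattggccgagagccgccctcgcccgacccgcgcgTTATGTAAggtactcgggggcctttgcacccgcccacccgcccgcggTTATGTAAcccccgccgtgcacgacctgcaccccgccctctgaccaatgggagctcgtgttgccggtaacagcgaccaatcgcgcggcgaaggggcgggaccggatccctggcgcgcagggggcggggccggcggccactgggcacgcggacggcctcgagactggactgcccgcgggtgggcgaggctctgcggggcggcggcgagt
Tef, first start: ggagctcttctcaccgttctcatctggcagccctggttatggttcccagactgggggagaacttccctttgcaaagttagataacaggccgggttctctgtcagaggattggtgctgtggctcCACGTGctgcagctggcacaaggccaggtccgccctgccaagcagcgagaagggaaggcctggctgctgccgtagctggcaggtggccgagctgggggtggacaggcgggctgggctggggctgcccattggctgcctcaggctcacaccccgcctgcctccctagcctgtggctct
Tef, second start: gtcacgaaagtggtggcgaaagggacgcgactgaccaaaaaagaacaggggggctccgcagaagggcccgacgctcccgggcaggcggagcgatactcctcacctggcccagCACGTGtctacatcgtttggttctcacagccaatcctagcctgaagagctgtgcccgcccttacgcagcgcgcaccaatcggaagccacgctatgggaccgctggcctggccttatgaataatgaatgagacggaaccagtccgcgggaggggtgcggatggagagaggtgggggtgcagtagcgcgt
Per3 holds 2 D-box matches, the first from base 46 of its window, and the E-boxes of Tef start at bases 124 and 113. Of 32851 promoter windows, 1.06% hold a D-box match and 7.15% an E-box. Windows were found for 17 of the 20 measured clock genes, 22 windows in all. An E-box was in 5 of these genes, a D-box in 1 and AGGTCA, the core of the element read by REV-ERB and ROR receptors, in 5. Of all windows 16.3% hold AGGTCA, and these shares are per window, whereas the counts are per gene. Besides Tef, the genes with an E-box were Cry1, Bhlhe41, Ciart and Per1, which were not called in RE. The called genes Dbp, Nr1d2, Arntl, Npas2 and Hlf held neither an E-box nor a D-box in their windows. A match describes these letters and no binding.

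Among the activators, Npas2 (chr1:39193731-39363236), which can take the place of CLOCK as the partner of BMAL1, fell beside Arntl. Its libraries held 28.5, 37.3, 30.1 and 20.1 CPM at time point 1 and 18.3, 7.83 and 10.5 CPM at time point 3, so the groups were separated by the narrow gap between replicate 4 of time point 1 and replicate 1 of time point 3. The fall was 1.25 ± 0.21 (log2, SE, adjusted p = 0.00296 by edgeR), and it no longer passed without replicate 3 of time point 3. Clock itself held 145 ± 10.9 CPM and then 133 ± 9.04 CPM (SD, n = 4 and 3), and Rora, which activates Bmal1, held 541 ± 48.1 and 460 ± 59.5 CPM; neither passed the test. Arntl2, a relative of Bmal1, held 25.8 to 36.7 CPM and then 41.9 to 45.5 CPM without overlap (log2 change 0.45 ± 0.14, adjusted p = 0.102 by edgeR), and it passed without replicate 4 of time point 1 (adjusted p = 0.0238) and with all 8 libraries (0.0495).

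Among the repressors, Per3 (chr4:151003652-151044665) rose most clearly. Its libraries held 43.6, 30.8, 39.5 and 40.1 CPM at time point 1 and 94.4, 170 and 114 CPM at time point 3. The lowest library of time point 3 was above the highest of time point 1. The rise was 1.71 ± 0.17 (log2, SE, 3.28-fold, adjusted p = 5.08e-07 by edgeR), the smallest p of all genes.

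Nr1d2 (chr14:18204054-18239127), which encodes REV-ERB beta, held 141, 118, 139 and 112 CPM at time point 1 and 176, 244 and 247 CPM at time point 3. The groups did not overlap, and the rise was 0.80 ± 0.12 (log2, SE, adjusted p = 0.000508 by edgeR). Its paralog Nr1d1, which encodes REV-ERB alpha, held 90.8 to 164 CPM and then 126 to 174 CPM with overlap and did not pass (log2 change 0.35 ± 0.29, adjusted p = 0.544). Nr1d1 did not pass in the other settings described here, whereas in WT it rose by 1.27 ± 0.28 (adjusted p = 0.00337), and the difference between RE and WT did not pass for this gene (adjusted p = 0.999).

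Per2 and the Cryptochrome genes lay near the threshold. Per2 held 17.5, 16.5, 9.13 and 8.58 CPM at time point 1 and 15.3, 32.8 and 40.4 CPM at time point 3, so replicate 1 of time point 3 lay within the range of time point 1. Its change was 1.20 ± 0.42 (log2, SE, adjusted p = 0.135 by edgeR), and it passed with all 8 libraries, where replicate 2 of time point 3 added 83.1 CPM (1.73, adjusted p = 0.0281). Cry1 held 49.9, 60.1, 33.9 and 27.5 CPM and then 22.2, 24.0 and 20.8 CPM (-0.94 ± 0.23, adjusted p = 0.0581), and without replicate 4 of time point 1 it passed (-1.10, adjusted p = 0.00522). Cry2 held 71.0 to 93.4 CPM and then 101 to 111 CPM (0.39 ± 0.12, adjusted p = 0.0945) and passed with all 8 libraries (adjusted p = 0.0200). Per1, Ciart, Bhlhe40 and Bhlhe41 overlapped between the groups and did not pass in any of the 3 sets of RE libraries, and Per1 had the smallest change of all clock genes, 0.03 ± 0.36.

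All 3 PAR bZIP genes rose. Dbp (chr7:45705088-45710203) held 11.7, 6.01, 10.1 and 8.02 CPM at time point 1 and 27.4, 75.0 and 38.4 CPM at time point 3, the largest rise of a clock gene (2.39 ± 0.31 log2, SE, adjusted p = 7.86e-05 by edgeR). Its groups did not overlap, and the libraries of time point 3 differed widely, with replicate 3 highest and replicate 1 lowest. The same order held for Per3 and Tef.

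Tef (chr15:81802421-81826863) held 172, 153, 158 and 152 CPM at time point 1 and 289, 460 and 374 CPM at time point 3 (1.24 ± 0.13, adjusted p = 2.03e-06 by edgeR). Hlf (chr11:90336536-90390895) held 102, 109, 106 and 111 CPM and then 179, 222 and 133 CPM (0.73 ± 0.16, adjusted p = 0.0461). The groups of both genes were separate, but the call of Hlf was lost when any library of time point 1 but replicate 4, or replicate 1 or 3 of time point 3, was left out. Nfil3, which represses at the same D-boxes, held 118, 117, 91.9 and 25.0 CPM and then 28.6, 15.0 and 52.3 CPM. The low value of replicate 4 put that library among those of time point 3, and the change of -1.46 ± 0.46 (adjusted p = 0.107) became -1.76 (adjusted p = 0.0113) without it.

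**Figure D2:**
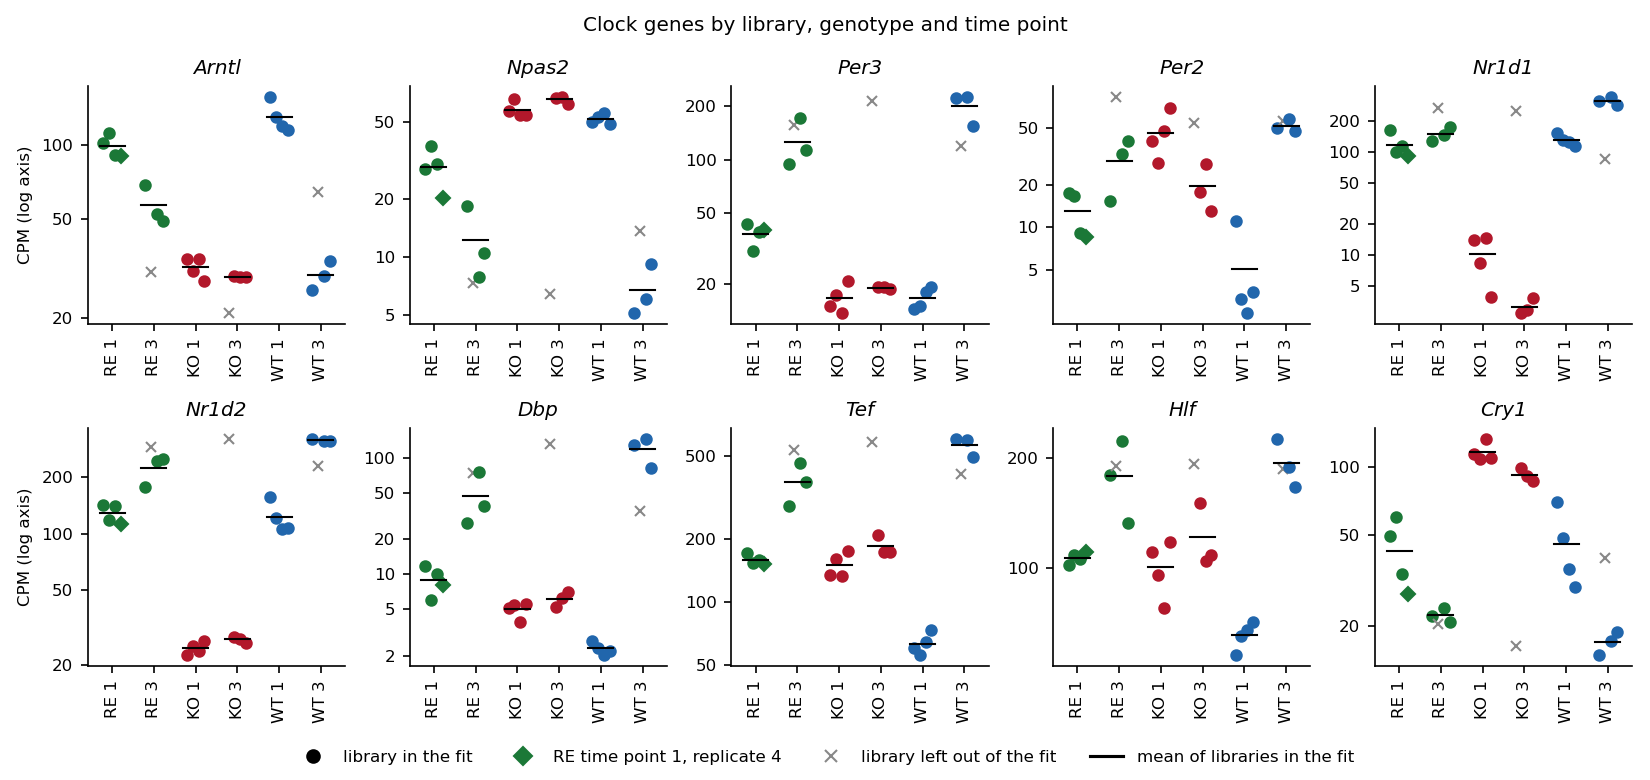
Level of 10 clock genes in CPM (log axis) in each library of RE, KO and WT at time points 1 and 3, with bars for the mean of the libraries in the fit, a diamond for replicate 4 of RE time point 1 and crosses for the 3 libraries left out. Per3, Dbp and Tef of RE do not overlap between time points, and the KO libraries in the fit hold 13.8 to 20.9 CPM of Per3 at both.

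The same genes were set beside KO, in which no cell has the rescued clock, and WT. In KO, Per3 held 13.8 to 20.9 CPM at time point 1 and 18.8 to 19.4 CPM at time point 3, a change of 0.19 ± 0.18. In WT it held 14.5 to 19.3 and then 154 to 225 CPM, a change of 3.58 ± 0.18. Of 18343 genes, the change between time points passed in 317 in KO (1.73%; 0.818% higher and 0.91% lower) and in 3522 in WT (19.2%; 8.74% higher and 10.5% lower), and both counts depend on single libraries. The KO count was 2 without replicate 1 or replicate 3 of its time point 1, 5, 27 and 1 without replicates 2, 3 and 4 of its time point 3, and 1082 without replicate 4 of its time point 1. The WT count was 1655 and 1943 without replicates 1 and 2 of its time point 1 and 1365 and 1305 without replicates 1 and 3 of its time point 3.

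Per3 was the 1 gene whose change differed between RE and KO (0.00545% of genes; difference 1.53 ± 0.25 log2, SE, adjusted p = 0.0132 by edgeR). The count was 0 without replicate 2 of RE time point 1, replicate 3 of RE time point 3 or any library of KO time point 3, 5 without replicate 1 of RE time point 3, and 2 without replicate 4 of RE time point 1 or replicate 2 or 4 of KO time point 1. The next differences did not pass: Npas2 (-1.43 ± 0.28), Tef (0.94 ± 0.19) and Ccnd2 (0.91 ± 0.18) each had an adjusted p of 0.112. With all 8 RE libraries these 3 passed, and so did Dbp (2.29, adjusted p = 0.0450), Nr1d1 (2.31, adjusted p = 0.0425), the cyclin gene Ccnd1 and Ifrd2. Nr1d1 fell in KO (-1.70 ± 0.34, adjusted p = 0.0179) and did not pass in RE with all 8 libraries (0.61, adjusted p = 0.204). Gm14275 was at 0 CPM in the KO libraries of the main result at both time points, so its difference between RE and KO could not be estimated. In WT its mean went from 0 to 1.02 CPM.

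Between RE and WT the change differed in 9 genes (0.0491%; 0.0218% with a positive and 0.0273% with a negative difference), and in all 9 it was the smaller in RE. They are Tef, Per3, Arntl, Dbp, Ttc9, Cry2, Leo1, Npas2 and Ccnd2. With all 8 RE libraries 8 genes passed, without Ccnd2 (adjusted p = 0.629), and without replicate 4 of RE time point 1 10 passed, again without Ccnd2 (0.106). Tef rose by 3.14 ± 0.14 in WT and by 1.24 ± 0.13 in RE (difference -1.91 ± 0.19, adjusted p = 7.90e-07 by edgeR). Dbp rose by 5.67 ± 0.36 in WT, from 2.03 to 2.69 CPM to 82.0 to 145 CPM, so its RE level was above WT at time point 1 and below it at time point 3 (difference -3.29 ± 0.47, adjusted p = 0.000312). Arntl fell by 2.13 ± 0.13 in WT, and the difference was 1.34 ± 0.18 (adjusted p = 0.000115).

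Ttc9 and Leo1, a subunit of the PAF1 transcription complex, were not called in RE. Ttc9 held 27.4 to 41.4 CPM and then 20.1 to 26.3 CPM in RE (-0.56 ± 0.14, adjusted p = 0.0592), against a fall of 1.91 ± 0.15 in WT. Leo1 held 22.8 to 27.4 and then 19.1 to 20.3 CPM in RE (-0.30 ± 0.09, adjusted p = 0.0910), against a fall of 1.06 ± 0.09 in WT. The RE levels of both genes did not overlap between time points.

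**Figure D3:**
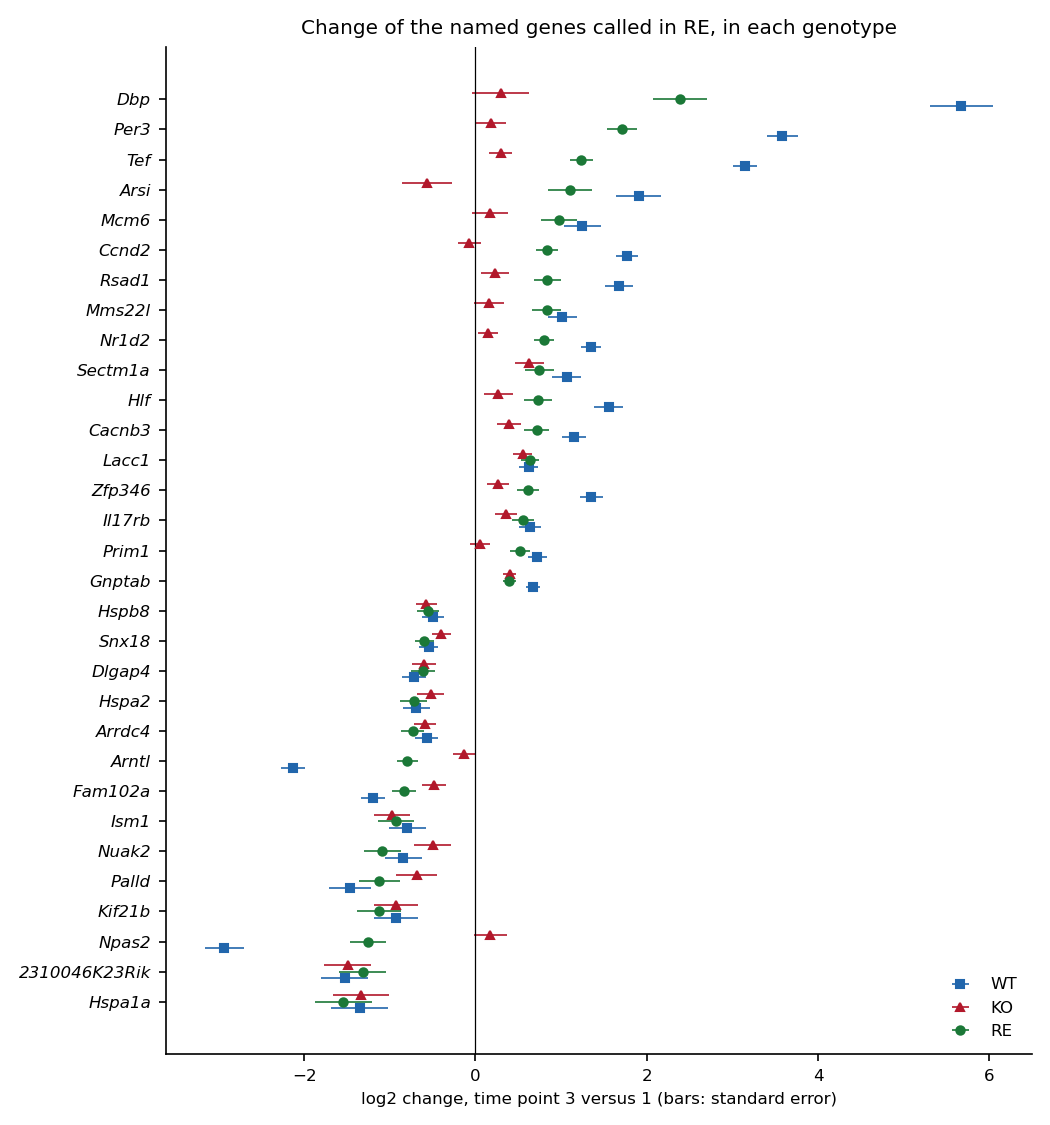
Log2 change between time points 3 and 1 of 31 genes called in RE, in RE (circles), KO (triangles) and WT (squares), with bars for the standard error. For Dbp the changes are 2.39, 0.29 and 5.67 in that order, and for Hspa1a they are -1.54, -1.34 and -1.35.

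Of the 62 genes, 59 also passed in WT, all in the same direction, and 19 passed in KO, all in the same direction. Of all genes tested, 19.2% passed in WT and 1.73% in KO, and the KO count was 1 to 1082 leaving out single libraries. The sign was the same in WT for 61 of the 62 and in KO for 57, and sign agreement over all genes was not counted. The median size of the change over the 62 was 0.85 in RE, 1.06 in WT and 0.48 in KO on the log2 scale. The genes were chosen for their change in RE, which raises that median relative to the others. The libraries of RE time point 2 were part of the joint fit but not of the comparison. Their mean lay between those of time points 1 and 3 for 60 of the 62 genes and 47.7% of all genes tested. The 62 genes were chosen for a gap between time points 1 and 3, and another mean falls within a wide gap more often. The higher share therefore follows in part from the choice and is no independent test of the calls. At time point 2 Dbp, for example, held 16.0, 23.2, 20.0 and 34.4 CPM and Arntl 83.1, 80.2, 89.4 and 65.8 CPM.

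Ccnd2 (chr6:127125162-127152193), cyclin D2 of the G1 phase, held 241, 243, 218 and 276 CPM at time point 1 and 371, 434 and 507 CPM at time point 3. The groups did not overlap, which was required of the rises named by rank, and the rise was 0.84 ± 0.13 (log2, SE, adjusted p = 0.00111 by edgeR). In KO it held 247 ± 17.1 and 235 ± 12.5 CPM (SD, n = 4 and 3), and in WT it rose by 1.77 ± 0.13. Ccnd1, cyclin D1, held 43.6 to 76.8 CPM and then 90.2 to 97.4 CPM without overlap and did not pass (0.56 ± 0.13, adjusted p = 0.0545), but passed without replicate 4 and with all 8 libraries.

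Of 28 genes of S phase and DNA replication, 2 rose and none fell, when 0.142% of all genes tested rose and 0.196% fell. Mcm6 (chr1:128331590-128359664), of the replicative helicase, held 46.5, 64.8, 74.0 and 38.02 CPM and then 107, 87.1 and 135 CPM (0.98 ± 0.21, adjusted p = 0.0389 by edgeR). Prim1 (chr10:128015168-128030037), the primase that starts DNA strands, held 30.3, 28.5, 40.0 and 33.1 CPM and then 45.4, 46.4 and 50.4 CPM (0.52 ± 0.11, adjusted p = 0.0406). Mms22l, outside the list and known for the repair of stalled replication forks, held 10.3 to 16.7 CPM and then 18.5 to 28.0 CPM (0.83 ± 0.17, adjusted p = 0.0240). All 3 genes were separate between the groups, which was required of the rises named by rank, and none passed in KO. The difference of the change between RE and KO did not pass for these 3 or for any of the 28. Of the 7 fits that leave out 1 RE library each, Mcm6 and Prim1 were each called in 2 and Mms22l in 3. The median change of the 28 genes was 0.48 in RE, with 23 positive, 0.69 in WT, with 24 positive, and -0.29 in KO, with 3 positive, against 0.01 over all genes tested in RE. Of all 18343 genes tested, 9514 were positive in RE, 9299 in WT and 8961 in KO. Their summed level in RE went from 574, 566, 775 and 428 CPM to 782, 591 and 1042 CPM, so replicate 3 of time point 1 lay above replicate 3 of time point 3.

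Of 26 genes of G2 and mitosis, none passed in RE by edgeR, whereas in WT 25 fell and 1 rose. Of all genes tested in WT, 10.5% fell and 8.74% rose. In RE 3232 of all genes had an unadjusted p under 0.05, the 3 genes named next among them. The median change of the 26 was -0.63 in RE, -1.25 in WT and -0.23 in KO, and 25 of the 26 were negative in each genotype. Of all 18343 genes tested, 8829 were negative in RE, 9044 in WT and 9380 in KO. Ube2c, which helps to end mitosis by ubiquitin transfer, had the smallest p in RE: it held 16.7, 16.2, 15.7 and 11.8 CPM and then 11.4, 3.70 and 7.21 CPM without overlap (-1.03 ± 0.35, adjusted p = 0.128). The mitotic kinase gene Aurka and the centromere histone gene Cenpa held 8.58 to 14.4 and 24.5 to 39.3 CPM at time point 1 and 4.92 to 8.30 and 12.9 to 27.1 CPM at time point 3. Without replicate 4 of time point 1 these 3 passed, when 5.71% of all genes tested fell. With all 8 libraries 3 of the list passed, when 1.94% of all genes fell. The summed level at time point 3 was 970, 383 and 876 CPM for replicates 1, 3 and 4, against 806 to 1299 CPM at time point 1, so replicate 3 was far below the other 2. Replicate 2, which was left out, held 402 CPM. Fewer cells in a phase and less RNA per cell cannot be told apart in bulk libraries.

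**Figure D4:**
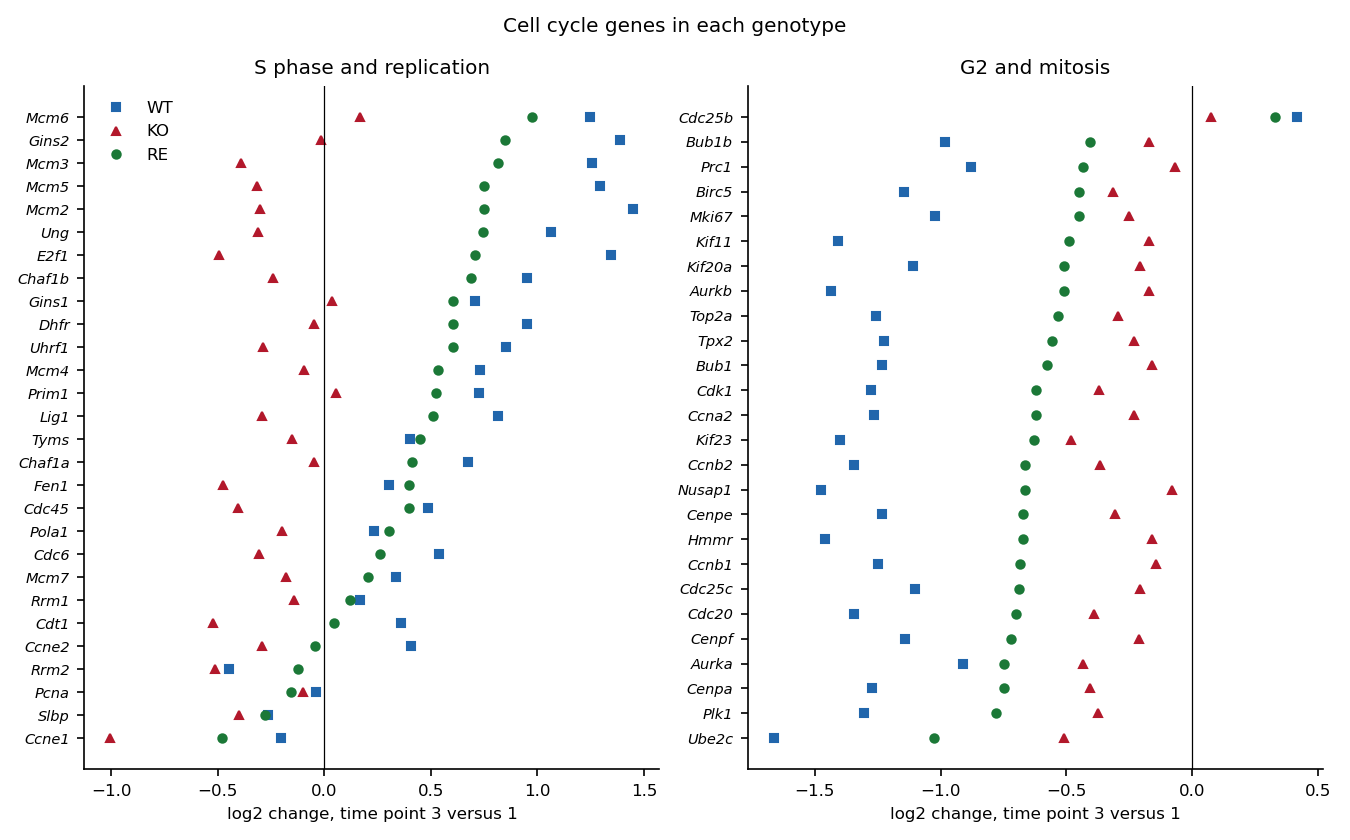
Log2 change between time points 3 and 1 of 28 genes of S phase and replication (left) and 26 of G2 and mitosis (right) in RE (circles), KO (triangles) and WT (squares), 1 row per gene. In the left panel 23 RE points and 3 KO points lie to the right of 0, and in the right panel 25 points of each genotype lie to the left of 0.

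Of the falls named by rank, those of protein-coding genes outside the clock lists with at least 5 CPM and no overlap, the largest was that of Hspa1a (chr17:34969190-34972156), which encodes an inducible HSP70 chaperone. It held 84.1, 73.0, 47.3 and 26.9 CPM at time point 1 and 19.7, 20.6 and 19.2 CPM at time point 3 (-1.54 ± 0.33, adjusted p = 0.0365 by edgeR). The libraries of time point 1 spread widely and those of time point 3 hardly, and the fall passed in KO (-1.34 ± 0.33, adjusted p = 0.0372) and in WT too. Its near-identical neighbour Hspa1b, whose reads may be shared with it, held 422 to 1307 CPM and then 374 to 468 CPM (-1.09 ± 0.32, adjusted p = 0.0894). Of the 18 heat shock genes Hspa1a was the 1 that passed, and of all genes tested 0.196% fell. The median change of the 18 was -0.18 and 17 were negative, against 0.01 and 8829 of 18343 over all genes tested. Without replicate 4 of time point 1, 5 fell (Hspa1a, Hspa1b, Hsp90aa1, Hsp90ab1 and Bag3), when 5.71% of all genes fell. With all 8 libraries 3 of the list fell, when 1.94% of all genes did. Hspa2, another HSP70 gene, and Hspb8, a small heat shock protein gene, lie outside that list and fell by 0.72 ± 0.16 and 0.55 ± 0.13 (adjusted p = 0.0395 and 0.0465). The call of Hspb8 was lost with all 8 libraries (adjusted p = 0.122), and replicate 2 of time point 3 held 325 CPM. Hspa1a, Hspa2 and Hspb8 were each called in 2 of the 7 fits that leave out 1 RE library each.

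Further falls were those of 2310046K23Rik, Kif21b, Palld, Nuak2, Ism1, Fam102a, Arrdc4, Dlgap4 and Snx18. Fam102a had the smallest p among them, with 191, 170, 145 and 128 CPM at time point 1 and 92.3, 81.3 and 93.2 CPM at time point 3 (-0.83 ± 0.14, adjusted p = 0.00296 by edgeR). Palld, which encodes the actin-associated protein palladin, held 54.8 to 105 CPM and then 30.3 to 39.3 CPM. Nuak2, a kinase of the AMPK family, held 41.3 to 74.2 and then 25.8 to 30.7 CPM. Arrdc4, an arrestin-domain gene and relative of Txnip, held 38.3 to 48.0 and then 23.6 to 28.9 CPM, and it passed in KO too (-0.59 ± 0.13, adjusted p = 0.0250). Of the 7 fits that leave out 1 RE library each, Fam102a and Arrdc4 were called in 6 and Snx18 in 3. Kif21b and Ism1 were called in 1, and 2310046K23Rik, Palld, Nuak2 and Dlgap4 in 2.

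The other named rises were Arsi, Rsad1, Sectm1a, Cacnb3, Lacc1, Zfp346, Il17rb and Gnptab. Lacc1 held 45.6 to 63.2 CPM at time point 1 and 80.2 to 93.2 CPM at time point 3 (0.64 ± 0.11, adjusted p = 0.00478 by edgeR), and its change was of like size in KO (0.55 ± 0.11) and WT (0.62 ± 0.11). Gnptab, which marks enzymes for the lysosome, held 159 to 171 and then 210 to 232 CPM, a rise of 0.39 ± 0.08 in RE and of 0.40 ± 0.08 in KO. Rsad1 held 6.33 to 10.5 CPM and then 13.8 to 15.8 CPM, with changes of 0.84 ± 0.16 in RE, 0.23 ± 0.16 in KO and 1.68 ± 0.16 in WT, and Cacnb3, a calcium channel subunit gene, rose by 0.71 ± 0.14. Arsi, an arylsulfatase gene, held 2.85 to 6.24 and then 8.41 to 11.1 CPM and was lost from the calls with other scaling. In the 7 fits that leave out 1 RE library each, Lacc1 was called in 6 and Rsad1 in 4. Sectm1a, Cacnb3 and Gnptab were called in 3, and Arsi, Zfp346 and Il17rb in 2.

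In many genes replicate 4 of time point 1 lay among the libraries of time point 3. The genes described next were chosen after their values were seen or by their rank in their list.

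Pde4b, a phosphodiesterase that breaks down cyclic AMP, held 252, 230, 118 and 50.7 CPM at time point 1 and 42.8, 42.3 and 57.4 CPM at time point 3. The kinase gene Pim1 held 183, 214, 128 and 49.5 CPM and then 47.7, 57.3 and 48.9 CPM, and Wnt11, a secreted Wnt ligand, 18.8, 20.9, 11.6 and 4.30 CPM and then 2.60, 4.75 and 3.86 CPM. All 3 passed (adjusted p = 0.0464, 0.0465 and 0.0411 by edgeR) although replicate 4 lay within time point 3, and so did Dkk3, a secreted protein of the Dickkopf family. Pde4b, Pim1 and Wnt11 were each called in 2 of the 7 fits that leave out 1 RE library each, and Dkk3 in 4. Sesn2, a stress-induced regulator of growth signalling, held 309, 256, 208 and 46.7 CPM and then 46.1, 48.1 and 49.4 CPM and did not pass (adjusted p = 0.0545), whereas without replicate 4 it did (adjusted p = 0.00302). Replicate 4 of KO time point 1 was low in the same genes, with 47.2 CPM of Sesn2 against 156 to 255 CPM in the other 3, 7.36 CPM of Cd207 against 54.2 to 130 CPM, 15.4 CPM of Ereg against 188 to 236 CPM and 8.30 CPM of Lor against 28.3 to 64.8 CPM. In WT no library of time point 1 held less than 183 CPM of Sesn2.

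Lists gained calls without replicate 4, when 5.71% of all genes tested fell. Of 18 glycolysis genes none passed, and 4 fell without replicate 4, led by the hexokinase gene Hk2, which held 108, 127, 57.0 and 19.1 CPM and then 14.8, 10.98 and 27.4 CPM. Of 16 hypoxia-induced genes none passed and 5 fell without it, among them Vegfa, the endothelial growth factor gene, at 60.6, 71.0, 43.2 and 26.3 CPM and then 16.7, 15.4 and 29.9 CPM. Of 19 genes of the integrated stress and unfolded protein responses none passed and 6 fell without it, of 12 EGF receptor and ligand genes 3 fell, and of 24 immediate early genes 3 fell. The ligand gene Ereg held 135, 88.1, 125 and 13.1 CPM and then 13.9, 11.1 and 31.2 CPM. Lor, loricrin of the granular layer, held 31.2, 22.9, 30.7 and 4.84 CPM and then 4.04, 6.93 and 6.59 CPM (-1.93 ± 0.48, adjusted p = 0.0592). In KO, Lor fell by 2.46 (adjusted p = 0.0174).

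Markers of some other cells were low in replicate 4 as well. The 16 Langerhans cell and macrophage genes summed to 560 to 1073 CPM in replicates 1 to 3 of time point 1, 182 CPM in replicate 4 and 150 to 438 CPM at time point 3. None of the 16 passed, and 6 fell without replicate 4, when 5.71% of all genes tested fell. The 6 include Cd207, which encodes langerin and held 146, 134, 66.9 and 9.62 CPM and then 12.3, 5.27 and 33.4 CPM. The 13 melanocyte genes summed to 51.1 to 70.6 CPM in replicates 1 to 3, 30.1 CPM in replicate 4 and 30.0 to 35.4 CPM at time point 3, and Dct, a melanin enzyme, held 10.7, 13.5, 9.38 and 1.01 CPM and then 1.11, 1.47 and 1.95 CPM. The T cell and dermal fibroblast lists ran from 158 to 256 and 556 to 645 CPM in replicates 1 to 3, lay at 127 and 467 CPM in replicate 4 and at 99.1 to 160 and 300.01 to 545 CPM at time point 3. For the 11 genes of endothelium and mural cells replicate 4 held 7.49 CPM, among the 7.19 to 8.70 CPM of its group and above the 4.30 to 6.03 CPM of time point 3. The 12 skeletal muscle genes held 4.94 to 16.1 CPM at time point 1, with 11.4 CPM in replicate 4, and 4.18 to 7.98 CPM at time point 3, and the 10 adipocyte genes 10.5 to 16.1 and then 13.5 to 14.9 CPM. No gene of these 7 lists passed with replicate 4 included. The part of these cells in the falls was not tested.

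**Figure D5:**
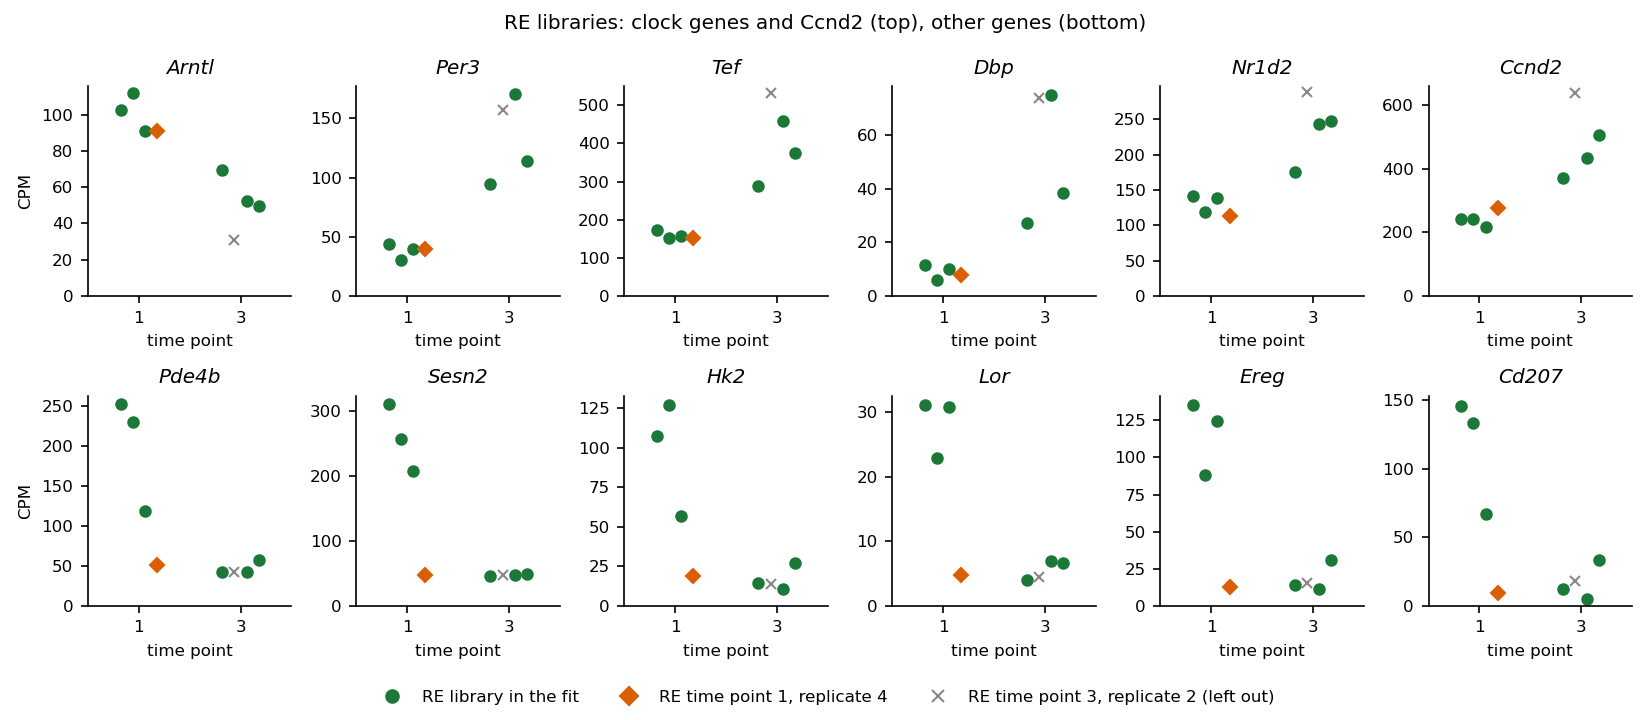
Level in CPM (axis from 0) of 12 genes in each RE library of time points 1 and 3. The top row holds 6 genes called in RE, and the bottom row 6 others, of which only Pde4b was called. Replicate 4 of time point 1 is drawn as a diamond and the left-out replicate 2 of time point 3 as a cross. Replicate 4 holds 40.1 CPM of Per3, among the other libraries of time point 1, and 46.7 CPM of Sesn2, among those of time point 3.

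Several other lists held no call in RE. None of 50 genes of oxidative phosphorylation, 20 of sterol synthesis, 11 of fatty acid synthesis, 18 of nucleotide excision repair, 20 of the granular layer, 15 of the spinous layer or 16 of the basal layer passed, and their median changes lay between -0.28 and 0.13, against 0.01 over all genes. Without replicate 4 of time point 1, Sdha of oxidative phosphorylation and Fdps and Lss of sterol synthesis rose, and Lor, Asprv1 and Crct1 of the granular, Ovol1 of the spinous and Itga3, Plec and Cdh3 of the basal layer fell. With all 8 libraries 1 gene fell in each of these 3 layers. Of all genes tested, 3.6% rose and 5.71% fell without replicate 4, and 1.94% fell with all 8 libraries. Rbm3 and Cirbp, the cold-inducible RNA-binding protein genes, held 30.6 to 47.5 and 41.3 to 76.4 CPM at time point 1 and 48.0 to 58.1 and 64.2 to 76.4 CPM at time point 3. Both had a change of 0.41, and neither passed (adjusted p = 0.124 and 0.209 by edgeR), although Rbm3 did without replicate 4 of time point 1. Across all genes 1642 (8.95%; 4.67% higher and 4.29% lower) did not overlap between the 4 and 3 libraries, 56 of the 62 among them.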

How the data were processed

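The deposited files hold read counts per gene and library, which the authors made with Trimmomatic, TopHat2 2.1.1 and HTSeq on mm10, per the submitters' processing notes. How libraries were made, and whether counting used strand, is not stated, so reads of overlapping or antisense genes cannot be told apart. Of 46078 gene IDs, 45229 were named with GENCODE M21, and the 5 summary lines of each file were dropped.

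The raw counts of 37 libraries, the 10 groups of one mt-Co1/mt-Nd1 set without the 3 libraries near another genotype, were fitted together with edgeR 4.0.16 in R 4.3.3 (TMM, filterByExpr, quasi-likelihood F-test, 27 residual degrees of freedom). Genes were called at an adjusted p under 0.05 (Benjamini-Hochberg over 18343 genes). Fold changes are log2 with SE = |log2 change| divided by the square root of F. P-values measure the spread between mice of a group. DESeq2 1.42.0, other library sets, filters, scaling, a replicate block and leaving out each library were alternatives.

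In data simulated for RE time point 3 versus 1 over 18192 genes, 56% of 1.5-fold, 76% of 2-fold and 98% of 3-fold and 4-fold changes were recovered, with 5.75% false calls. The changes were placed in 50 genes per fold, and genes of low mean count were not among them. Noise was drawn for each gene alone, so a departure shared by many genes, like that of replicate 4, was not simulated. These shares therefore do not cover such a departure or genes of low count. Depth was 31119891 to 41642833 reads in genes per RE library. The rule named all measured clock genes, of which 1 is not reported here, the 12 largest protein-coding rises and falls without overlap at a mean of 5 CPM or more, up to 4 genes of smallest p per list and 8 per difference. The members and lists were chosen with earlier results of these data known. Of 637 genes in 39 lists, 598 were measured and 39 fell under the filter on low counts.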

Additional observations from a re-analysis of the deposited data

Results flagged for a closer look

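Of 172 groups of 4 values checked for a library far from the other 3, 7 were singled out, and chance singles out about 5% of such groups. In RE time point 1, Rora was at 612 CPM in replicate 2 against 509 to 525 CPM, the replication gene Gins2 at 10.3 CPM in replicate 3 against 5.19 to 5.95 CPM, and in replicate 4 the early response gene Ier3 was at 36.3 CPM against 151 to 169 CPM and the melanin gene Tyrp1 at 0.363 CPM against 2.63 to 2.85 CPM. In RE time point 3, with replicate 2 included, Ism1 was at 6.83 CPM in replicate 3 against 10.8 to 11.5 CPM, and in replicate 4 the barrier lipid gene Alox12b was at 8.64 CPM against 6.03 to 6.41 CPM and Pde4b at 57.4 CPM against 42.2 to 42.8 CPM.

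The change between time points differed between genotypes in these genes by edgeR's quasi-likelihood test of the difference. Against KO, Per3 changed by 1.53 more in RE (log2, 1.71 against 0.19, adjusted p = 0.0132). Against WT the differences of RE were -1.91 for Tef, -1.87 for Per3, 1.34 for Arntl, -3.29 for Dbp and 1.35 for Ttc9. They were -1.01 for Cry2, 0.75 for Leo1, 1.68 for Npas2 and -0.93 for Ccnd2, with adjusted p-values between 7.9e-07 for Tef and 0.0387 for Ccnd2.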

How the results depend on the processing

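The count of 62 genes in RE was 523 with all 8 RE libraries, 577 with all 40 libraries of the set, 396 with all 18 groups, 519 by DESeq2 and 2385 with all 8 but replicate 4 of time point 1; it was 0 in fits of the RE libraries alone, with 7 libraries (2009 genes at an unadjusted p under 0.05) or all 8 (2628), and 9 to 1709 leaving out single libraries. Replicate numbers did not pair RE time points 1 and 3 (same-number correlations of deviations -0.42 to -0.02). Between genotypes they were -0.06 to 0.64 for RE and KO and 0.16 to 0.31 for RE and WT at time point 1, with 0.64 for replicate 4 of RE and KO, and -0.06 to -0.01 and 0.10 to 0.32 at time point 3. With a replicate block 13 genes passed in RE, 3 in KO and 1666 in WT. The RE minus KO count of 1 was 8 with all 8 libraries, 9 by DESeq2, 0 with all 40 libraries, with the compared genotypes alone and with all 18 groups (343, 316 and 269 at an unadjusted p under 0.05), and 0 to 5 leaving out single libraries. The RE minus WT count of 9 was 0 with all 40 libraries (520) and 7 to 10 leaving out single libraries. The KO count of 317 was 915 with all 40 libraries, 0 with KO alone (3254), 481 with all 18 groups, 763 by DESeq2, 125 without a filter and 1 to 1082 leaving out single libraries, and the WT count of 3522 was 1305 to 4015. Changes reversed in sign for Per1 (-0.28 to 0.17 leaving out single libraries, with -0.02 and -0.0006 without replicates 1 and 3 of time point 1 and -0.28 without replicate 4 of time point 3), Ciart (-0.07 to 0.40, with -0.068 without replicate 4 of time point 1 and -0.0046 without replicate 3 of time point 3) and the RE minus KO difference of Per3 with all 40 libraries (-0.22), which adds the left-out KO library at 213 CPM of Per3. Otherwise the cause was not tested.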
